A study of Mus musculus with 18 samples.

Results

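The genes described here make, break down and read cyclic AMP (cAMP) in the mouse kidney. They were taken from a list of 42 genes. It holds 4 alpha subunits of the G proteins that switch cAMP synthesis, 9 membrane adenylyl cyclases, 17 cyclic nucleotide phosphodiesterases, 6 subunits of protein kinase A (PKA), 2 PKA anchoring proteins, 2 Epac exchange factors and the transcription factors Creb1 and Crem. All 42 were found among the 32285 genes of the count table, and each held 10 or more counts over 18 libraries. Of these, 40 passed the filter on low counts and were tested, and Adcy2 and Adcy8 were not.

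Hormone receptors coupled to the stimulatory G protein activate adenylyl cyclase, which makes cAMP from ATP, and receptors coupled to inhibitory G proteins restrain it. Phosphodiesterases hydrolyse cAMP, some of them also or mainly cyclic GMP, and so set how far and how long the signal lasts. In the cell cAMP binds the regulatory subunits of PKA and frees its catalytic subunits, and it activates the Epac exchange factors for the small GTPase Rap; free PKA phosphorylates, among others, the transcription factor CREB. In the collecting duct vasopressin uses this route to control water permeability, and in polycystic kidney disease cAMP is known to drive fluid secretion into cysts and growth of the cyst epithelium.

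RNA was sequenced from microdissected regions of kidneys of male C57BL/6 mice of the line iKspCre-Pkd1del, in which a tamoxifen-inducible, kidney-specific Cre removes loxP-flanked exons of Pkd1. Tamoxifen was given at 12.5 mg/kg on postnatal days 18 and 19, and kidneys were taken at the mild cystic stage, at a labelled age of 269 (kidneys 1 and 3) or 297 (kidney 2) with no unit given. The 3 region types, all of the genotype Pkd1 KO, were cystic with high F4/80 signal, cystic with low F4/80 signal, and non-cystic, where F4/80 is the macrophage surface protein encoded by Adgre1. Each of 3 kidneys gave 2 libraries of each region type, which were summed so that the kidney is the replicate (n = 3 for each region type). The labels do not say whether the kidneys came from separate mice. With the kidney as block, p-values measure how the differences between regions vary over these 3 kidneys only. No wild-type kidney is among these samples, so every difference is between regions of Pkd1 KO kidneys. The Ksp promoter of the Cre is known to act in tubular epithelium, so macrophages, vessels and stroma in the dissected tissue carry an intact Pkd1.

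Library totals ran from 5366651 to 9188813 counts. Levels below are in CPM, the counts of a gene per 1e6 counts of the library, scaled by the trimmed mean of M values, per kidney and region type. Pkd1 counts ranged over the kidneys from 6.89 to 12.6 CPM in F4/80-high regions, from 5.34 to 9.31 CPM in F4/80-low regions and from 5.04 to 7.68 CPM in non-cystic regions. With all samples deleted and only some exons removed, this checks no label. Adgre1 followed the sorting of the regions, at 53.9 ± 14.9 CPM in F4/80-high, 6.55 ± 1.65 CPM in F4/80-low regions and 2.56 ± 0.96 CPM in the non-cystic ones (SD, n = 3). The summed level of 6 macrophage markers ran from 933 to 1760 CPM in F4/80-high, from 205 to 269 CPM in F4/80-low regions and from 53.1 to 86.8 CPM in the non-cystic ones. That of 5 fibroblast markers ran from 457 to 856, from 181 to 250 and from 32.6 to 50.3 CPM in the same order. Proximal tubule markers (6 genes) ran the other way, from 944 to 4520 CPM in F4/80-high, from 10700 to 13900 CPM in F4/80-low regions and from 13300 to 20000 CPM in the non-cystic ones. The 5 markers of injured tubule summed to between 864 and 980, between 165 and 578, and between 4.51 and 12.8 CPM in the same order. None of the defining markers of the 12 cell types examined was at 0 counts over the libraries. In such bulk samples fewer cells of a type and less RNA per cell cannot be told apart.

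In F4/80-high cystic against non-cystic regions, 10 of the 40 tested cAMP genes rose and 7 fell (edgeR quasi-likelihood test, kidney as block, Benjamini-Hochberg adjusted p below 0.05 over 16034 genes). The genes that rose were Gnai2 and Gnai3, the cyclases Adcy1, Adcy3 and Adcy7, the phosphodiesterases Pde3a, Pde4b and Pde5a, the regulatory subunit Prkar2b and the anchoring protein Akap12. Those that fell were the phosphodiesterases Pde4c, Pde4d, Pde8a and Pde9a, the PKA subunits Prkaca and Prkar2a, and Rapgef3. The 10 that rose are 25.0% of the tested members, against 19.7% of all tested genes, and the 7 that fell are 17.5%, against 19.5%, so the members were called about as often as all genes. Its median log2 fold change was 0.15, beside 0.04 over all tested genes. Each of the 17 called genes moved in its called direction in 3 of 3 kidneys, which its call on these same kidneys favours. Genes were called in opposite directions within the phosphodiesterases and the PKA subunits, as the plot of log2 fold changes by family shows. Scaling by total counts moved the median of all genes to 0.65 on the log2 scale, and 20 members then rose and 1 fell. Among all genes the same scaling called 6608 higher and 1463 lower, against 3156 and 3133 in the main scaling. Upper quartile factors moved the median to 0.16, and 14 members rose and 6 fell, beside 3621 higher and 2685 lower among all genes. Measured from the median of all genes, Rapgef3 stood at -0.99 in the main scaling and at -0.98 with total counts, and Adcy7 at 2.88 and 2.89. Exons of 12 of the 42 members overlap a gene on the opposite strand, and because the kit does not mark the strand, their counts are uncertain to that extent.

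**Figure D1:**
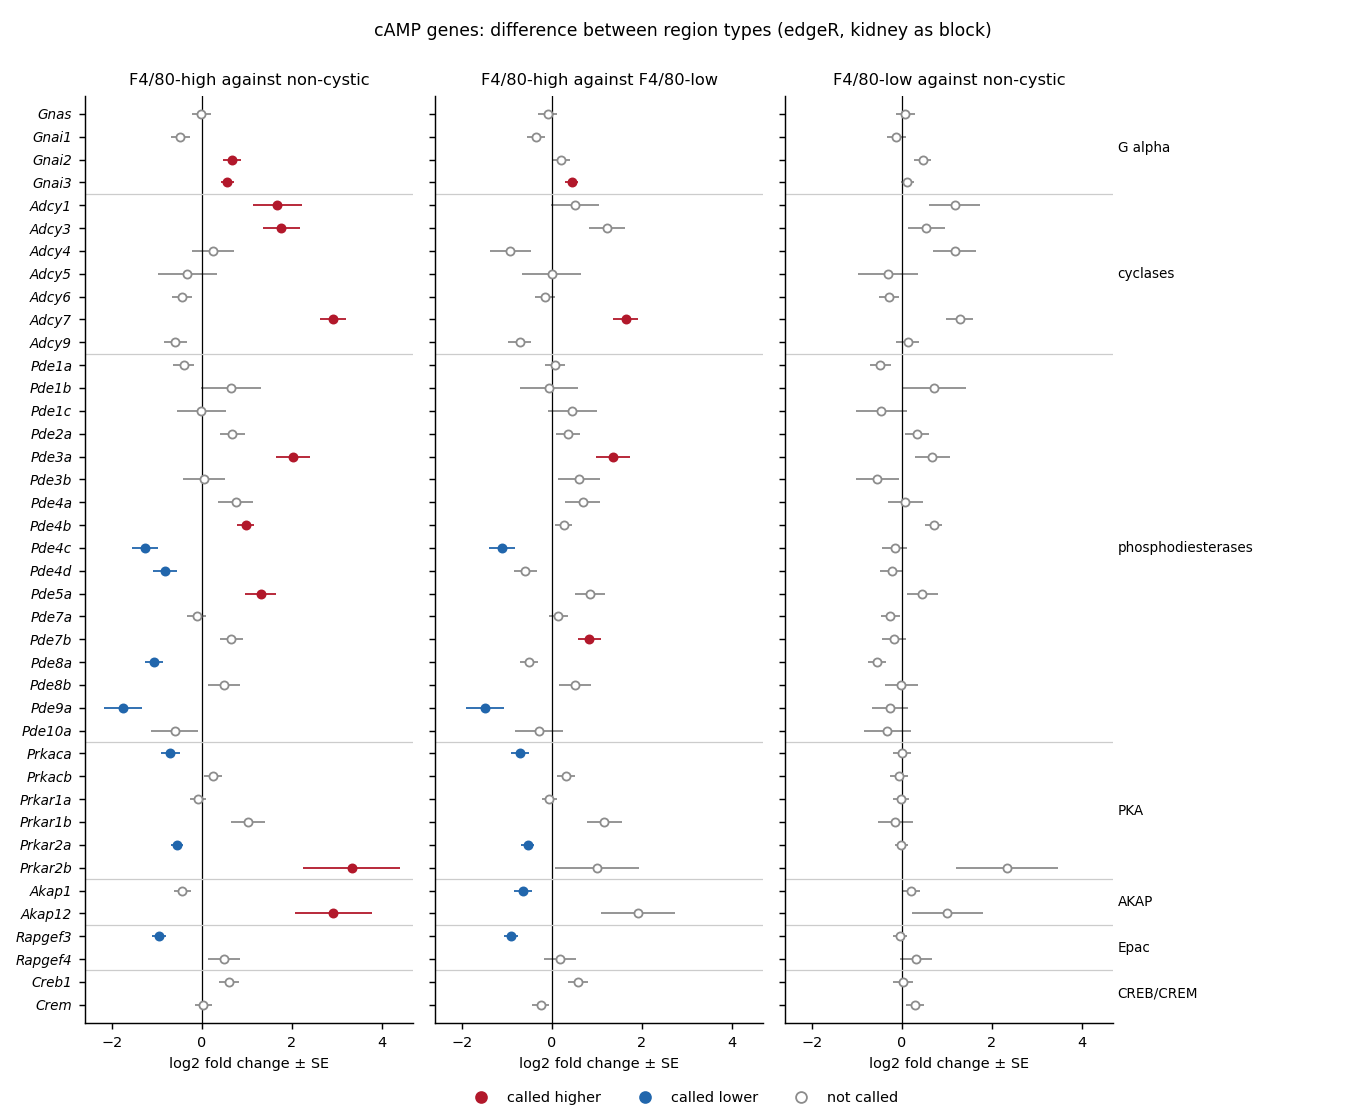
Log2 fold change ± SE of the 40 tested cAMP genes, grouped by role, in F4/80-high against non-cystic (left), F4/80-high against F4/80-low (middle) and F4/80-low against non-cystic regions (right); filled points passed an adjusted p of 0.05. On the left 10 filled points lie above 0 and 7 below it, in the middle 4 and 6, and on the right none is filled.

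Gnai2 and Gnai3, which encode alpha subunits of the inhibitory G proteins, rose in F4/80-high against non-cystic regions, while Gnas, the stimulatory alpha subunit, did not pass. Gnai2 stood at 132, 140 and 185 CPM in the F4/80-high regions of kidneys 1, 2 and 3, at 129, 138 and 125 CPM in F4/80-low regions, and at 101, 95.9 and 88.1 CPM in non-cystic regions. Both cystic region types were above the non-cystic regions in every kidney, and the 6 F4/80-high libraries (111 to 205 CPM) did not overlap the 6 non-cystic ones (86 to 100 CPM). Its log2 fold change in F4/80-high against non-cystic regions was 0.67 ± 0.19 (SE; adjusted p = 0.0206). That call was lost without any 1 of the 3 kidneys, with log2 values between 0.46 and 0.80, and without replicate 2 of the F4/80-high region of kidney 1 (0.59, adjusted p = 0.0758).

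Gnai3 had 66.1, 69.8 and 69.1 CPM in F4/80-high regions, 49.4, 45.9 and 55.3 CPM in F4/80-low regions and 44.5, 45.2 and 48.5 CPM in non-cystic regions. The F4/80-high libraries lay above all libraries of both other region types. The difference was 0.57 ± 0.15 on the log2 scale against non-cystic regions (adjusted p = 0.0118) and 0.45 ± 0.15 against F4/80-low regions (adjusted p = 0.0489). Against non-cystic regions the call was lost without kidney 1 (0.56, adjusted p = 0.087) and without kidney 2 (0.53, adjusted p = 0.155). Gnai1, the third inhibitory subunit, stood at -0.47 ± 0.21 on the log2 scale in F4/80-high against non-cystic regions and did not pass (adjusted p = 0.0942). Gnas averaged 323.5 ± 26.0 CPM in F4/80-high, 342.8 ± 25.5 CPM in F4/80-low regions and 325.8 ± 28.4 CPM in the non-cystic ones (SD, n = 3). In F4/80-high against non-cystic regions it stood at -0.01 ± 0.21 on the log2 scale (adjusted p = 0.978), which total-count scaling turned to 0.60 (adjusted p = 0.0306). Transcripts of the opposite strand overlap 2457 of its exon bases. Per kb of exon, Gnai2 was the highest of the 4 subunits in F4/80-high regions (40.3 ± 7.66 CPM per kb, against 28.9 ± 2.33 for Gnas) and in F4/80-low regions (34.6 ± 1.64, against 30.6 ± 2.28). Gnas was the highest in non-cystic regions (29.1 ± 2.54, against 25.2 ± 1.76 for Gnai2). Each order held in 3 of 3 kidneys, but in the non-cystic region of kidney 1 the 2 genes were nearly level per kb. There Gnas had 300 and Gnai2 101 CPM before division by length. The length is that of all annotated exons of a gene merged, 11186 bases for Gnas and 3779 for Gnai2, and these orders depend on it. In CPM not divided by length, Gnas exceeded Gnai2 in every region type, as at 323.5 against 152.2 CPM in F4/80-high regions.

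The adenylyl cyclases changed their order between the region types. Adcy7, a cyclase that blood and immune cells are known for and that the beta-gamma subunits of G proteins enhance, had the largest log2 fold change of the 7 tested cyclases in F4/80-high against non-cystic regions, under every scaling tried. In F4/80-high regions it had 11.4, 9.26 and 20.3 CPM, in F4/80-low regions 3.94, 3.74 and 4.74 CPM, and in non-cystic regions 1.24, 1.39 and 2.72 CPM. The 3 region types did not overlap at the level of kidneys, and the F4/80-high libraries were above all other libraries. Adcy7 lies on chromosome 8, from 88272403 to 88329962 (GRCm38), with no annotated exon of another gene over its exons. Its log2 fold change was 2.92 ± 0.29 in F4/80-high against non-cystic regions (adjusted p = 0.000124) and 1.64 ± 0.27 against F4/80-low regions (adjusted p = 0.00335). Neither call was lost under any of 31 alternative settings, each library and kidney left out in turn among them. The macrophage markers moved with it, from 933 to 1760 CPM in F4/80-high, from 205 to 269 CPM in F4/80-low regions and from 53.1 to 86.8 CPM in the non-cystic ones. So did the fibroblast and injured tubule markers given above. The 4 T cell markers summed to 31.3 to 43.3, 6.59 to 12.4 and 0.854 to 6.72 CPM in the same order. The part of any of these markers in the result was not tested.

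Adcy3, a cyclase known from olfactory neurons and primary cilia, had 7.52, 5.25 and 12.2 CPM in F4/80-high, 5.44, 2.5 and 2.33 CPM in F4/80-low regions and 1.94, 1.68 and 3.57 CPM in the non-cystic ones. The F4/80-high and non-cystic kidneys did not overlap, and the F4/80-low region of kidney 1 lay above the F4/80-high region of kidney 2. On the log2 scale it was 1.77 ± 0.41 higher in F4/80-high than non-cystic regions (adjusted p = 0.00738), a call kept under all 31 alternatives, although 1380 bases of its exons overlap those of Cenpo on the opposite strand. Adcy1, a calcium- and calmodulin-stimulated cyclase, had 5, 4.41 and 8.01 CPM in F4/80-high, 6.73, 4.34 and 1.5 CPM in F4/80-low regions and 1.24, 2.19 and 1.94 CPM in the non-cystic ones. Its F4/80-high libraries lay above the non-cystic ones, while the F4/80-low ones spread over both. Adcy1 was 1.69 ± 0.54 higher on the log2 scale in F4/80-high than non-cystic regions (adjusted p = 0.0343). It no longer passed without kidney 1 (1.60, adjusted p = 0.108), without kidney 2 (2.02, adjusted p = 0.0734) or without replicate 2 of the F4/80-high region of kidney 2 (1.56, adjusted p = 0.0685).

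Adcy6 and Adcy9, the cyclases with the highest levels in non-cystic regions, did not pass in any comparison. Adcy6, a calcium-inhibited cyclase that vasopressin uses in the collecting duct, averaged 10.6 ± 0.40 CPM in F4/80-high, 11.8 ± 1.96 CPM in F4/80-low regions and 14.4 ± 2.81 CPM in the non-cystic ones (SD, n = 3). Its log2 difference between F4/80-high and non-cystic regions was -0.43 ± 0.22 (adjusted p = 0.155). Adcy9 averaged 6.34 ± 1.29, 10.6 ± 2.72 and 9.71 ± 2.65 CPM in the same order. Its log2 difference was -0.58 ± 0.26 against non-cystic regions (adjusted p = 0.102) and -0.71 ± 0.26 against F4/80-low regions (adjusted p = 0.071). Adcy4 and Adcy5 stayed under 6 CPM in every kidney and did not pass. Adcy2 had 10 counts in 3 of 6 F4/80-high libraries, 1 count in the F4/80-low libraries and 0 in the non-cystic ones, where a count of 0 allows up to 0.0669 CPM. Adcy8 had 40 counts in 4 of the 6 F4/80-high libraries, 3 in F4/80-low and 8 in non-cystic libraries. These counts were too few for the filter, and no fold is given.

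Per kb of exon, Adcy7 averaged 2.03 ± 0.87 CPM in F4/80-high regions, where it was the first of the 9 cyclases in 2 of 3 kidneys. Beside it stood Adcy6 at 1.57 ± 0.06, Adcy3 at 1.33 ± 0.57 and Adcy9 at 1.22 ± 0.25. In F4/80-low regions Adcy9 (2.04 ± 0.52) was first in 3 of 3 kidneys, followed by Adcy6 (1.73 ± 0.29), and Adcy7 stood at 0.615 ± 0.078. In non-cystic regions Adcy6 (2.12 ± 0.41) and Adcy9 (1.87 ± 0.51) led, in 2 kidneys and in 1, and Adcy7 was the fifth at 0.265 ± 0.121. In F4/80-high regions the mean of Adcy7 lay within its SD of Adcy6, Adcy3 and Adcy9, so these cannot be ranked beyond their spread, and neither can Adcy6 and Adcy9 in non-cystic or F4/80-low regions.

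**Figure D2:**
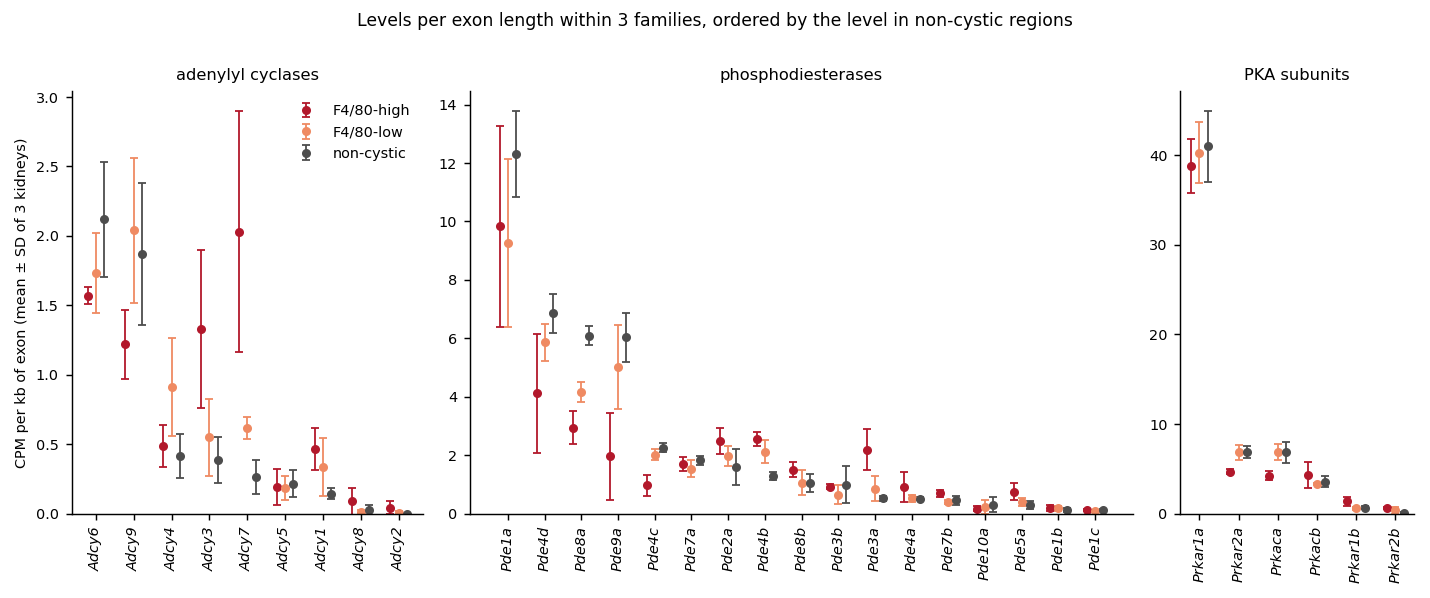
Level per kb of exon (CPM per kb, mean ± SD of 3 kidneys) of the adenylyl cyclases, phosphodiesterases and PKA subunits in F4/80-high (red), F4/80-low (orange) and non-cystic (grey) regions, ordered by the level in non-cystic regions. Adcy7 goes with 2.03 CPM per kb in F4/80-high and 0.265 CPM per kb in non-cystic regions, Pde1a is the highest phosphodiesterase in every region type, and Prkar1a exceeds every other PKA subunit.

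Of the 17 phosphodiesterases, 3 rose and 4 fell in F4/80-high against non-cystic regions, near the shares over all tested genes (19.7% and 19.5%), and their median log2 fold change was 0.05. Those that rose were Pde3a, a cAMP phosphodiesterase that cyclic GMP inhibits, Pde4b, a cAMP-specific enzyme known from leukocytes, and Pde5a, which hydrolyses cyclic GMP and is known from smooth muscle. Pde3a had 26.8, 19.4 and 37.3 CPM in F4/80-high, 16.7, 10.1 and 5.72 CPM in F4/80-low regions and 6.01, 6.07 and 7.92 CPM in the non-cystic ones. Its F4/80-high values were the highest in every kidney. Pde3a was 2.04 ± 0.38 higher on the log2 scale against non-cystic regions (adjusted p = 0.00318), kept under all 31 alternatives, and 1.36 ± 0.37 against F4/80-low regions (adjusted p = 0.0293). Exons of Pde3a overlap a transcript on the opposite strand over 741 bases of 12737.

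Pde4b had 27.8, 24.1 and 28.8 CPM in F4/80-high, 27.1, 21.4 and 18.7 CPM in F4/80-low regions and 12.7, 12.8 and 15.4 CPM in the non-cystic ones. All kidneys of both cystic region types lay above all non-cystic ones. Against non-cystic regions, F4/80-high regions had 0.98 ± 0.19 more Pde4b on the log2 scale (adjusted p = 0.00322), kept under all 31 alternatives. Against F4/80-low regions the difference was 0.27 ± 0.19 and did not pass (adjusted p = 0.331). Pde5a had 8.57, 4.01 and 9.56 CPM in F4/80-high, 5.44, 2.76 and 3.53 CPM in F4/80-low regions and 2.3, 1.98 and 4.43 CPM in the non-cystic ones. Within each kidney the F4/80-high value was the highest, but the F4/80-high region of kidney 2 was below the non-cystic region of kidney 3. The log2 fold change of Pde5a against non-cystic regions, 1.31 ± 0.34 (adjusted p = 0.0134), fell to 0.97 without replicate 2 of the F4/80-high region of kidney 2 and to 1.05 without kidney 1, with adjusted p of 0.151 and 0.111. The 5 smooth muscle and pericyte markers summed to between 216 and 364 CPM in F4/80-high, 56.9 and 159 CPM in F4/80-low regions and 46 and 114 CPM in non-cystic regions. The macrophage, fibroblast and injured tubule markers given above were also highest in F4/80-high regions. The part of any of these markers in the Pde3a and Pde5a results was not tested.

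The phosphodiesterases that fell include 2 cAMP-specific enzymes of the Pde4 family, Pde4c and Pde4d, the high-affinity cAMP phosphodiesterase Pde8a and the cyclic GMP phosphodiesterase Pde9a. Pde4c, which is known to bind polycystin-2 in a complex at the primary cilium of kidney cells, had 6.57, 6.58 and 2.98 CPM in F4/80-high, 11.7, 10 and 12 CPM in F4/80-low regions and 13.6, 11.9 and 12.5 CPM in the non-cystic ones. No F4/80-high library (2.11 to 7.96 CPM) reached the lowest of the other libraries (8.64 CPM). Pde4c was at -1.26 ± 0.29 on the log2 scale against non-cystic regions (adjusted p = 0.00739) and -1.10 ± 0.29 against F4/80-low regions (adjusted p = 0.0233). The call against non-cystic regions was lost without kidney 1 (-1.40, adjusted p = 0.0552) and with scaling by total counts (-0.68, adjusted p = 0.0788).

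Pde8a had 13.1, 13.3 and 9.22 CPM in F4/80-high, 16.5, 15.6 and 18.4 CPM in F4/80-low regions and 23.2, 25.5 and 25.2 CPM in the non-cystic ones. The 3 region types were ordered the same way in all kidneys with no overlap, F4/80-low lying between the other two. Pde8a was at -1.06 ± 0.20 on the log2 scale in F4/80-high against non-cystic regions (adjusted p = 0.00281), and only total-count scaling lost the call (-0.46, adjusted p = 0.106). Pde9a had 12.8, 5.35 and 2.65 CPM in F4/80-high, 19.3, 12 and 22 CPM in F4/80-low regions and 24.5, 18.7 and 20.9 CPM in the non-cystic ones. The F4/80-high values spread widely, and that of kidney 1 was above the F4/80-low value of kidney 2. Its log2 fold change was -1.76 ± 0.42 against non-cystic regions (adjusted p = 0.0113) and -1.49 ± 0.42 against F4/80-low regions (adjusted p = 0.0358). Against non-cystic regions it was lost without kidney 2 (-1.76, adjusted p = 0.0809), and 295 of its exon bases overlap the opposite strand.

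Pde4d had 75.4, 46.1 and 26.5 CPM in F4/80-high, 77.4, 62.2 and 71.3 CPM in F4/80-low regions and 89.7, 73.7 and 83.4 CPM in the non-cystic ones. F4/80-high was the lowest region type in each kidney, but the F4/80-high value of kidney 1 lay among the non-cystic ones. Against non-cystic regions Pde4d was at -0.82 ± 0.26 on the log2 scale (adjusted p = 0.0335). This call was lost without kidney 2 (-0.91, adjusted p = 0.108), and without kidney 3 (-0.46, adjusted p = 0.0633). It was also lost without replicate 2 of the F4/80-high region of kidney 1 (-0.65, adjusted p = 0.162) or of kidney 3 (-0.94, adjusted p = 0.0763), and without replicate 1 of the F4/80-low region of kidney 3 (-0.81, adjusted p = 0.0508). It was lost too with no kidney term (-0.74, adjusted p = 0.0706) and with total counts (-0.23, adjusted p = 0.419). The summed proximal tubule markers, from 944 to 4520 CPM in F4/80-high and from 13300 to 20000 CPM in non-cystic regions, moved in the same direction as these 4 enzymes. So did those of the distal convoluted and connecting tubule (62.2 to 458 against 1240 to 2100 CPM). Thick ascending limb (273 to 885 against 1020 to 1550 CPM) and intercalated cell markers (54.7 to 138 against 178 to 583 CPM) did too as sums. Of the 4 thick ascending limb markers, however, 2 were called lower and 1 had a log2 fold change above 0. In F4/80-low regions these 4 summed to between 1410 and 3580 CPM. Principal cell markers overlapped (20 to 159 against 129 to 246 CPM), and the injured tubule markers given above rose. The part of any of these markers in the result was not tested.

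Pde7b, a cAMP-specific enzyme, passed against F4/80-low regions alone: it had 10.2, 8.37 and 7.35 CPM in F4/80-high, 4.69, 5.78 and 4.14 CPM in F4/80-low regions and 5.48, 7.32 and 3.88 CPM in the non-cystic ones. F4/80-high was the highest in each kidney. The log2 fold change of Pde7b was 0.83 ± 0.26 against F4/80-low (adjusted p = 0.0435) and 0.66 ± 0.26 against non-cystic regions (adjusted p = 0.0694). The first was lost in 15 of 31 alternatives, with log2 values no lower than 0.61. These include the omission of any kidney and of 9 single libraries: replicate 1 of the non-cystic region of each kidney, replicate 1 of the F4/80-low region of kidneys 1 and 2, and replicate 2 of that of kidney 3 (0.61, adjusted p = 0.167). In F4/80-high regions they were replicate 2 of kidney 1, replicate 1 of kidney 2 and replicate 2 of kidney 3. Pde1a, a calcium- and calmodulin-stimulated enzyme, was the highest phosphodiesterase per kb of exon in every region type and in 3 of 3 kidneys. It stood at 9.83 ± 3.44 CPM per kb in F4/80-high, 9.27 ± 2.87 in F4/80-low and 12.3 ± 1.47 in non-cystic regions, and its log2 fold change in F4/80-high against non-cystic regions, -0.40 ± 0.23, did not pass (adjusted p = 0.191). By its mean Pde4d was the second in all region types, at 4.11 ± 2.05, 5.86 ± 0.64 and 6.85 ± 0.67 CPM per kb in that order. The third was Pde8a in F4/80-high (2.94 ± 0.57) and non-cystic regions (6.09 ± 0.32), and Pde9a in F4/80-low regions (5.02 ± 1.45). Pde4b moved to the fourth place in F4/80-high regions (2.55 ± 0.23), against the eighth in non-cystic regions (1.29 ± 0.14), and Pde3a to the sixth (2.19 ± 0.71), against the eleventh (0.523 ± 0.085). These places of Pde4d, Pde4b and Pde3a are those of means whose SDs overlap with their neighbours, so they cannot be ranked beyond their spread. Pde1a, Pde1b, Pde1c, Pde2a, Pde3b, Pde4a, Pde7a, Pde8b and Pde10a passed in no comparison. Of these Pde2a, which cyclic GMP stimulates, came nearest in F4/80-high against non-cystic regions, at 0.69 ± 0.27 (adjusted p = 0.0712), and it shares 3955 exon bases with an annotated transcript on its own strand.

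**Figure D3:**
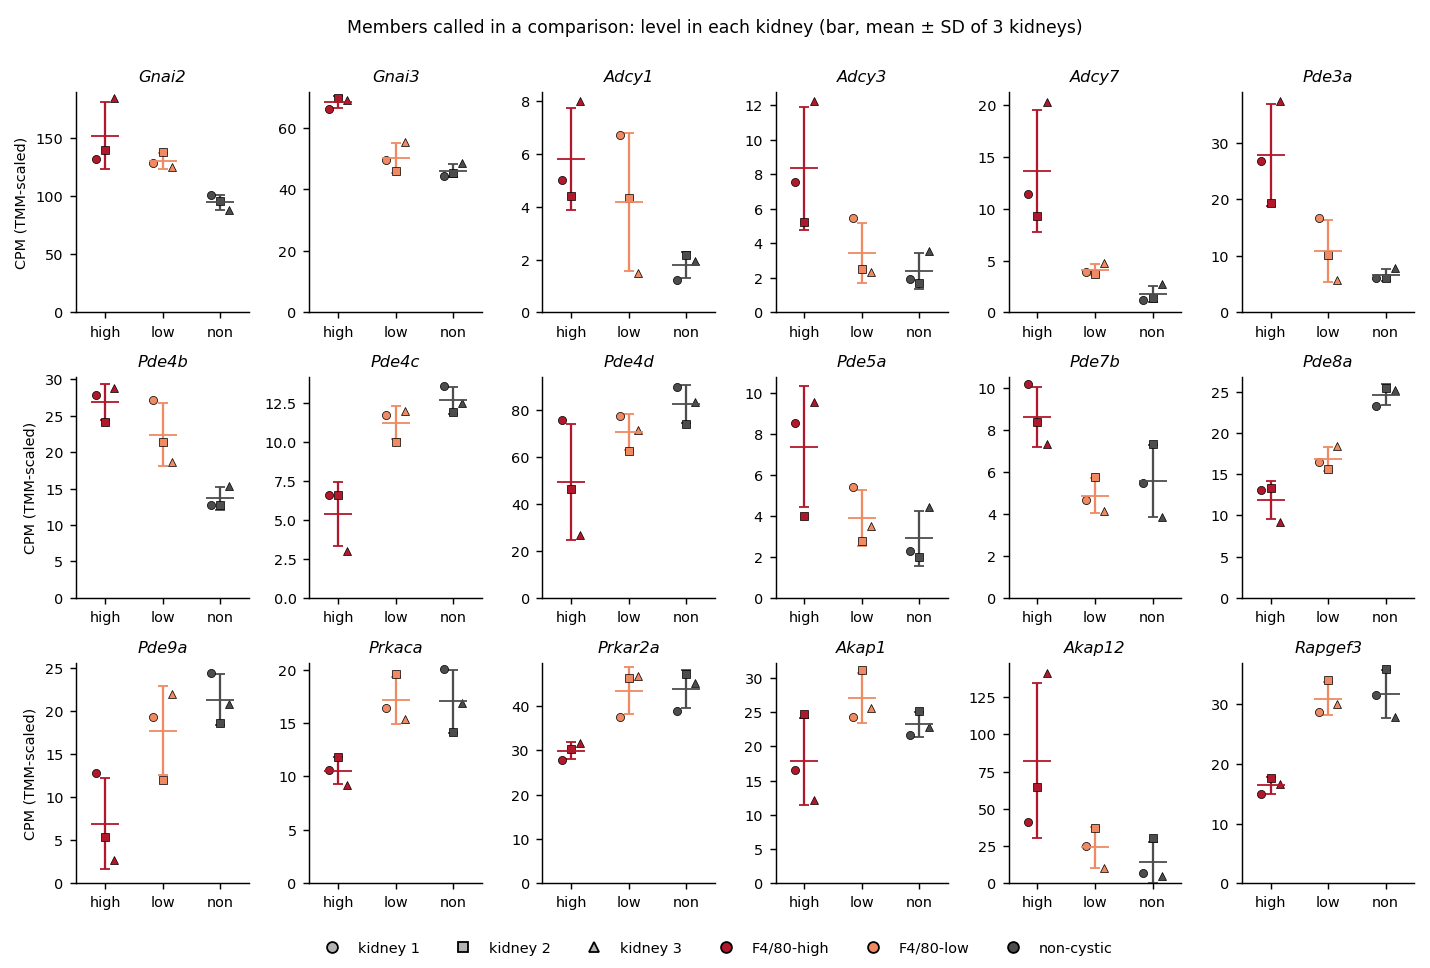
Level (CPM, scaled by the trimmed mean of M values) of the 18 cAMP genes that passed in at least 1 comparison and averaged 5 CPM or more in a region type, in F4/80-high (high), F4/80-low (low) and non-cystic (non) regions; each symbol is 1 kidney and bars are mean ± SD of 3 kidneys. Gnai3, Adcy7 and Pde3a are highest in F4/80-high regions, and Pde4c, Pde8a, Prkar2a and Rapgef3 are lowest there.

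Among the PKA subunits the catalytic subunit gene Prkaca and the type II regulatory subunit gene Prkar2a fell, and the second type II regulatory gene, Prkar2b, rose. Prkaca had 10.6, 11.8 and 9.22 CPM in F4/80-high, 16.4, 19.6 and 15.4 CPM in F4/80-low regions and 20.1, 14.2 and 16.9 CPM in the non-cystic ones. F4/80-high kidneys were below all kidneys of both other region types. Prkaca was at -0.70 ± 0.21 on the log2 scale against non-cystic (adjusted p = 0.0232) and -0.71 ± 0.21 against F4/80-low regions (adjusted p = 0.0341). Against non-cystic regions the call was lost without kidney 1 (-0.59, adjusted p = 0.164), without kidney 3 (-0.61, adjusted p = 0.0774) and without replicate 2 of the F4/80-high region of kidney 2 (-0.62, adjusted p = 0.0546). It was also lost with the 2 region types fitted alone, with upper quartile factors (-0.58, adjusted p = 0.051) and with total counts (-0.09, adjusted p = 0.774). Prkacb, the other catalytic subunit, averaged 37.8 ± 12.7 CPM in F4/80-high, 29.2 ± 0.98 CPM in F4/80-low regions and 31.2 ± 5.40 CPM in the non-cystic ones and did not pass (log2 0.25 ± 0.20, adjusted p = 0.344).

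Prkar2a had 27.8, 30.3 and 31.6 CPM in F4/80-high, 37.5, 46.3 and 46.7 CPM in F4/80-low regions and 38.9, 47.2 and 45.3 CPM in the non-cystic ones. The 6 F4/80-high libraries lay below every other library. Prkar2a was at -0.55 ± 0.14 on the log2 scale against non-cystic (adjusted p = 0.0126) and -0.54 ± 0.14 against F4/80-low regions (adjusted p = 0.0232). Without kidney 1 it was -0.59 (adjusted p = 0.065) and without kidney 2 -0.51 (adjusted p = 0.155) against non-cystic regions, and scaling by total counts turned it to 0.06 (adjusted p = 0.772). Prkar2b was the least abundant subunit, at 2.17 ± 0.48 CPM in F4/80-high, 1.35 ± 1.51 CPM in F4/80-low regions and 0.227 ± 0.202 CPM in the non-cystic ones (SD, n = 3), with 0 counts in the non-cystic region of kidney 1. Its fitted log2 fold change against non-cystic regions was 3.34 ± 1.08 (adjusted p = 0.0331), a value that at such counts depends on the prior count. The call was lost without kidney 1 (2.86, adjusted p = 0.173), kidney 2 (3.41, adjusted p = 0.0961) or replicate 1 of the F4/80-high region of kidney 3 (2.61, adjusted p = 0.077).

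Prkar1a, the most widely expressed regulatory subunit, was the highest PKA transcript per kb of exon, at 38.8 ± 3.05 CPM per kb in F4/80-high, 40.3 ± 3.40 in F4/80-low and 41.0 ± 3.93 in non-cystic regions. The next subunit, Prkar2a, stood at 4.69 ± 0.30 CPM per kb in F4/80-high and 6.87 ± 0.68 in non-cystic regions. Prkar1a had 160, 183 and 160 CPM in F4/80-high, 174, 189 and 159 CPM in F4/80-low regions and 164, 196 and 170 CPM in the non-cystic ones. The region types overlapped in full, and the log2 fold change was -0.08 ± 0.18 in F4/80-high against non-cystic regions (adjusted p = 0.756), turned to 0.53 by total-count scaling (adjusted p = 0.0287). In the same comparison Prkar1b stood at 1.03 ± 0.38 and did not pass (adjusted p = 0.0571), with 341 exon bases shared with a transcript of its own strand.

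Prkar1a was also the only one of the 33 members with an entry in the RefSeq promoter table (build GRCm38.p6) to hold a full cAMP response element, the sequence TGACGTCA that CREB and CREM bind. Its promoter is shown for that reason, at chr11:109650699-109650998 on the plus strand. Capitals mark the full element, whose first base is at position -49 with the annotated start at 0, and, nearer the 5′ end, the core motif TGACG.
Prkar1a: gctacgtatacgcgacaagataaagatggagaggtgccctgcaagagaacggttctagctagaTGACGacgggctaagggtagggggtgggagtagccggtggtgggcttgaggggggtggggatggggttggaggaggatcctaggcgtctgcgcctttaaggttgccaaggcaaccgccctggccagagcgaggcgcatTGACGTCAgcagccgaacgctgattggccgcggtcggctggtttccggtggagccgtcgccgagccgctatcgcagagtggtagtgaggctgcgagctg
The full element, read on both strands as it is its own reverse complement, is in 588 of the 32851 promoters of the table (1.79%) and in 2 of the 75 member promoters (2.67%), which are overlapping windows of Prkar1a. The core TGACG, counted on either strand and also where it lies inside the full element, is in 20.8% of all promoters and in 26.7% of the members' promoters. By gene it is in 23.0% of all genes and in 16 of the 33 members (48.5%), several of which have more than 1 promoter in the table. These matches are a description of the letters and not of binding.

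Akap12, a scaffold that tethers PKA at the plasma membrane and is known from stromal and vascular cells, had 41.2, 64.6 and 141 CPM in F4/80-high, 24.8, 37.3 and 10.1 CPM in F4/80-low regions and 6.98, 30.1 and 4.74 CPM in the non-cystic ones. The F4/80-high kidneys lay above all others, although single libraries overlapped, and the kidneys of a region type differed widely among themselves. Akap12 was 2.93 ± 0.86 higher on the log2 scale against non-cystic regions (adjusted p = 0.04). It lost its call in 9 of 31 alternatives. These were the omission of kidney 1 (3.17, adjusted p = 0.0827) or kidney 2 (3.95, adjusted p = 0.0544), no filter, and the 2 region types fitted alone. The omission of 5 single libraries did so too: replicate 2 of the non-cystic region of kidney 1 (2.82, adjusted p = 0.0553), replicate 1 of the non-cystic region of kidney 2 (2.75, adjusted p = 0.0642), replicate 2 of the F4/80-low region of kidney 3 (2.92, adjusted p = 0.0529), replicate 2 of the F4/80-high region of kidney 2 (2.76, adjusted p = 0.0739) and replicate 1 of that of kidney 3 (2.95, adjusted p = 0.0532). Its direction held in all 31. Without kidney 3, whose F4/80-high region had the highest level, the log2 fold change of Akap12 was 1.71 (adjusted p = 0.0134). The fibroblast markers ran from 457 to 856 CPM in F4/80-high, from 181 to 250 CPM in F4/80-low regions and from 32.6 to 50.3 CPM in the non-cystic ones. The macrophage and injured tubule markers given above had the same order of regions. The part of any of these markers in the result was not tested.

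Akap1, which anchors PKA at the outer mitochondrial membrane, passed in the other direction against F4/80-low regions. It had 16.5, 24.7 and 12.2 CPM in F4/80-high, 24.3, 31.2 and 25.6 CPM in F4/80-low regions and 21.6, 25.2 and 22.8 CPM in the non-cystic ones. F4/80-high was the lowest in each kidney, and the F4/80-high region of kidney 2 lay among the values of the other regions. Akap1 was at -0.64 ± 0.19 on the log2 scale against F4/80-low regions (adjusted p = 0.0392), lost in 14 of 31 alternatives with values from -0.82 to -0.16. Against non-cystic regions it was at -0.43 ± 0.19 and did not pass (adjusted p = 0.11). Per kb of exon, Akap12 exceeded Akap1 in F4/80-high regions (12.7 ± 8.08 against 4.05 ± 1.45 CPM per kb). Akap1 exceeded Akap12 in F4/80-low (6.15 ± 0.84 against 3.72 ± 2.11) and non-cystic regions (5.29 ± 0.43 against 2.16 ± 2.17); each order held in 3 of 3 kidneys.

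Rapgef3, which encodes Epac1, had 14.9, 17.7 and 16.7 CPM in F4/80-high, 28.7, 34 and 30 CPM in F4/80-low regions and 31.6, 35.9 and 27.8 CPM in the non-cystic ones. The F4/80-high libraries, from 10.2 to 20.8 CPM, were below all other libraries, the lowest of which had 24.1 CPM, and the F4/80-low and non-cystic regions overlapped. Rapgef3 was at -0.95 ± 0.15 on the log2 scale against non-cystic (adjusted p = 0.00128) and -0.91 ± 0.15 against F4/80-low regions (adjusted p = 0.00371). Against non-cystic regions only total-count scaling lost the call (-0.33, adjusted p = 0.182); against F4/80-low regions that scaling and the omission of kidney 1 did (-0.89, adjusted p = 0.0505). Rapgef3 lies on chromosome 15, from 97744770 to 97767972 (GRCm38), and 587 of its 6336 exon bases overlap antisense transcripts that cannot be told apart from it without strand. Rapgef4, encoding Epac2, averaged 7.13 ± 1.41, 6.77 ± 2.95 and 5.33 ± 1.79 CPM in F4/80-high, F4/80-low and non-cystic regions and did not pass (log2 0.50 ± 0.36 against non-cystic, adjusted p = 0.3).

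Neither transcription factor passed. Creb1 had 33, 24.1 and 33.1 CPM in F4/80-high, 22.4, 15.9 and 22.1 CPM in F4/80-low regions and 13.7, 20.9 and 24.6 CPM in the non-cystic ones. Its F4/80-high value was the highest in every kidney, with a log2 fold change of 0.60 ± 0.23 against non-cystic regions (adjusted p = 0.0571). It passed with, among others, the stricter count filter, with upper quartile or total-count scaling and with the 18 libraries fitted separately. Crem, whose isoforms activate or repress the same elements, averaged 27.8 ± 5.81, 33.8 ± 10.4 and 28.0 ± 11.1 CPM in that order of regions, with a log2 fold change of 0.04 ± 0.20 (adjusted p = 0.895).

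Ratios of counts within a kidney and region do not depend on the scaling of the libraries; 5 pairs within families were chosen after the levels were seen, so their values are a description. Prkaca over Prkacb was 0.347, 0.387 and 0.176 in F4/80-high, 0.559, 0.653 and 0.548 in F4/80-low and 0.614, 0.564 and 0.475 in non-cystic regions. Prkar2a over Prkar1a was 0.174, 0.165 and 0.198 in F4/80-high, 0.216, 0.245 and 0.293 in F4/80-low and 0.236, 0.24 and 0.267 in non-cystic regions. F4/80-high regions were lowest in every kidney in both pairs, without overlap. Rapgef3 over Rapgef4 was 2.07, 3.1 and 1.97 in F4/80-high, 2.97, 4.93 and 7.98 in F4/80-low and 4.97, 5.64 and 8.52 in non-cystic regions. Adcy7 over Adcy6 was 1.06, 0.908 and 1.84 in F4/80-high, 0.283, 0.335 and 0.467 in F4/80-low and 0.103, 0.102 and 0.156 in non-cystic regions. Pde4d over Pde4b was 2.71, 1.91 and 0.919 in F4/80-high, 2.86, 2.9 and 3.81 in F4/80-low and 7.05, 5.75 and 5.42 in non-cystic regions. The Adcy7 and Pde4d ratios differed between all 3 region types with no overlap, a separation that the choice of these pairs favours.

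**Figure D4:**
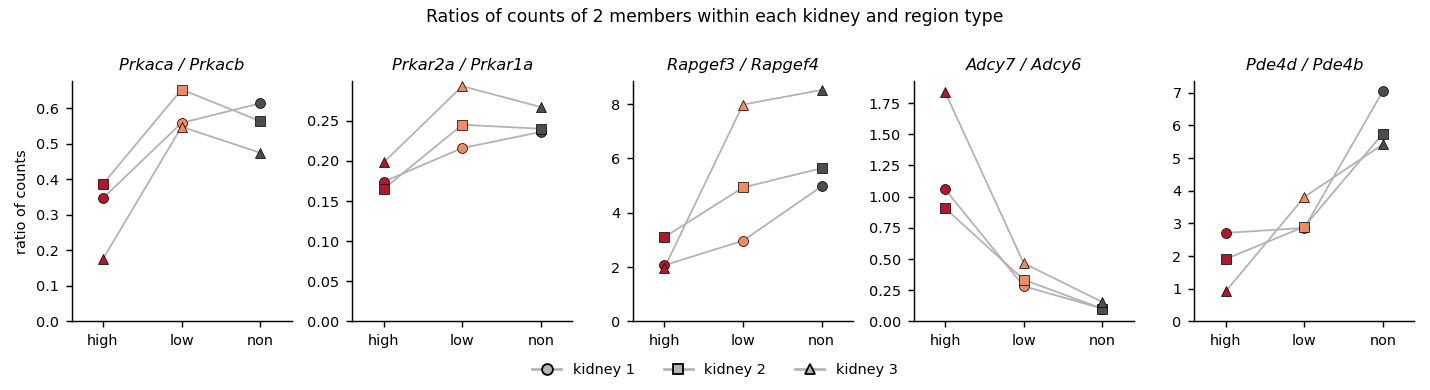
Ratio of the counts of 2 cAMP genes in F4/80-high (high), F4/80-low (low) and non-cystic (non) regions; symbols are kidneys, and lines join the regions of a kidney. The ratio of Adcy7 to Adcy6 is between 0.908 and 1.84 in F4/80-high regions and between 0.102 and 0.156 in non-cystic regions, while the ratios of Prkaca, Prkar2a, Rapgef3 and Pde4d to their family partners are lowest in F4/80-high regions.

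Of the 40 tested members, 4 rose and 6 fell in F4/80-high against F4/80-low cystic regions, which is 10.0% and 15.0%, against 10.3% and 14.0% of all tested genes. Gnai3, Adcy7, Pde3a and Pde7b rose, and Pde4c, Pde9a, Prkaca, Prkar2a, Akap1 and Rapgef3 fell. Each moved in its called direction in 3 of 3 kidneys, which its call on these same kidneys favours. The 2 comparisons share the F4/80-high samples, which favours calls in both. Of the 10, 8 were called in the same direction against non-cystic regions as well, and 21 of the 40 were called in neither. The overlap over all tested genes was not counted, so these numbers describe the members only. Adcy7 alone lost no call under the alternatives, with log2 values from 1.42 to 2.12. Gnai3 lost its call in 17 alternatives, with log2 values no lower than 0.36. These include the omission of any kidney and of 11 of the 18 libraries. The 7 libraries whose omission kept the call were replicate 2 of the non-cystic region of kidney 1, replicate 1 of that of kidney 3, replicate 1 of the F4/80-low region of kidney 1, replicate 2 of those of kidneys 2 and 3, and replicate 1 of the F4/80-high region of kidneys 2 and 3. Pde3a was lost without kidney 1 (1.78, adjusted p = 0.0614), kidney 2 (1.56, adjusted p = 0.0915) and 4 single libraries. Those were replicate 1 of the non-cystic region of kidney 1 (1.33, adjusted p = 0.0735), replicate 2 of the F4/80-low region of kidney 2 (1.21, adjusted p = 0.0542), and in F4/80-high regions replicate 1 of kidney 1 (1.22, adjusted p = 0.0651) and replicate 2 of kidney 2 (1.27, adjusted p = 0.0565).

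The calls for lower levels against F4/80-low regions were lost in 14 of the 31 alternatives for Akap1, 11 for Prkaca, 10 for Pde9a, 7 for Prkar2a, 4 for Pde4c and 2 for Rapgef3. Total-count scaling was among them each time, and no direction turned. The omission of any kidney lost the calls of Akap1, Prkaca and Prkar2a, that of kidney 1 or 2 lost Pde9a, that of kidney 1 or 3 lost Pde4c, and that of kidney 1 lost Rapgef3. Single libraries were involved for 4 of these genes. Prkaca was lost without replicate 2 of the F4/80-low region of kidney 1 (-0.61, adjusted p = 0.078) and replicate 1 of that of kidney 2 (-0.67, adjusted p = 0.057). It was also lost without replicate 2 of the F4/80-high region of kidney 1 (-0.72, adjusted p = 0.0563) or kidney 2 (-0.62, adjusted p = 0.078). Pde9a was lost without the same 2 F4/80-low libraries (-1.39 and -1.36, adjusted p = 0.0565 and 0.0812) and without replicate 2 of the F4/80-high region of kidney 1 (-1.31, adjusted p = 0.0924) or kidney 3 (-1.54, adjusted p = 0.0659). Akap1 was lost without these same 2 F4/80-low libraries (-0.49 and -0.61, adjusted p = 0.122 and 0.0706), replicate 2 of that of kidney 3 (-0.58, adjusted p = 0.0533), and replicate 2 of the F4/80-high region of any kidney (-0.54 to -0.73). Prkar2a was lost without replicate 2 of the F4/80-high region of kidney 1 (-0.52, adjusted p = 0.0582).

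In F4/80-low cystic against non-cystic regions no member passed, where 1.51% of all tested genes rose and 0.0249% fell. Counting unadjusted p below 0.05 in edgeR, 4 of the 40 tested members were higher (Gnai2, Adcy4, Adcy7 and Pde4b) and 1 was lower (Pde8a). Over the 16034 tested genes 1499 were higher and 376 lower at that threshold, shares near those of the members. DESeq2 called 1 member, Adcy7. The median log2 fold change of the members was 0.015, beside 0.003 over all tested genes. Adcy7 stood at 1.28 ± 0.29 on the log2 scale (adjusted p = 0.071), with the F4/80-low value above the non-cystic one in 3 of 3 kidneys. It passed without a count filter (1.29, adjusted p = 0.0301), in the DESeq2 test (1.26, adjusted p = 0.0339), and with the 18 libraries fitted separately (1.34, adjusted p = 0.0118). It also passed without kidney 3 (1.53, adjusted p = 0.0431) and without replicate 2 of the F4/80-low region of kidney 3 (1.38, adjusted p = 0.0311). Pde4b, at 0.71 ± 0.19 (adjusted p = 0.125), passed with the libraries fitted separately (0.77, adjusted p = 0.0287) and without kidney 3 (0.91, adjusted p = 0.0341). Rapgef3 (-0.04 ± 0.15), Prkaca (0.01 ± 0.21) and Prkar2a (-0.01 ± 0.14), which were called in F4/80-high regions, had log2 fold changes near 0 here, with adjusted p of 0.963, 0.997 and 0.989.

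Of 16 listed Gs-coupled receptors, which feed the pathway, 14 were tested, and in F4/80-high against non-cystic regions 3 rose and 3 fell. Over all tested genes 19.7% rose and 19.5% fell in this comparison, shares near those of the receptors and the ones against which the counts of the further lists are to be read. The glucagon receptor Gcgr averaged 3.34 ± 1.35 CPM in F4/80-high, 10.4 ± 3.34 CPM in F4/80-low regions and 14.1 ± 2.48 CPM in the non-cystic ones, at -2.14 ± 0.31 on the log2 scale in F4/80-high against non-cystic regions (adjusted p = 0.000751). The parathyroid hormone receptor Pth1r averaged 78.2 ± 33.3, 258.0 ± 44.2 and 294.7 ± 77.2 CPM (log2 -1.95 ± 0.29, adjusted p = 0.000865). The adenosine receptor Adora2b rose, to 6.61 ± 2.47 CPM in F4/80-high, against 2.17 ± 1.60 CPM in non-cystic regions, by 1.76 ± 0.43 on the log2 scale (adjusted p = 0.00923). Without replicate 2 of the F4/80-high region of kidney 1 that was 1.27 (adjusted p = 0.235). Ptger4, a prostaglandin E2 receptor, rose by 1.18 ± 0.32 (adjusted p = 0.0156), a call lost without kidney 1 (1.19, adjusted p = 0.0718) and without kidney 2 (1.22, adjusted p = 0.0673). Calcr, the calcitonin receptor, named outside the rule for these lists after its values were seen, rose by 1.80 (adjusted p = 0.0227), a call lost in 6 of 28 alternatives. Its levels were low, at 2.46 ± 0.72 CPM in F4/80-high, 0.69 ± 0.46 CPM in F4/80-low regions and 0.68 ± 0.08 CPM in the non-cystic ones. The vasopressin receptor Avpr2, named here after its values were seen, averaged 6.11 ± 1.20 CPM in F4/80-high, 7.41 ± 3.42 CPM in F4/80-low regions and 10.6 ± 1.30 CPM in the non-cystic ones and did not pass (log2 -0.85 ± 0.33, adjusted p = 0.069). In addition 2347 of its 2886 exon bases overlap Arhgap4 on the opposite strand. The summed level of 5 principal cell markers ran from 20 to 159, from 31.1 to 250 and from 129 to 246 CPM, and their part in the Avpr2 values was not tested.

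Of 12 listed Gi-coupled receptors, 8 were tested, of which 3 rose and 1 fell in F4/80-high against non-cystic regions. The purinergic receptor P2ry14 averaged 11.4 ± 1.90 CPM in F4/80-high, 4.15 ± 2.09 CPM in F4/80-low regions and 2.84 ± 1.46 CPM in the non-cystic ones (log2 1.99 ± 0.48, adjusted p = 0.00946). P2ry12, a microglial and platelet receptor, rose by 2.91 ± 1.00 (adjusted p = 0.044) and the neuropeptide Y receptor Npy1r by 2.51 ± 0.82 (adjusted p = 0.0415), calls lost in 12 of 30 alternatives for P2ry12 and in 9 of 31 for Npy1r. The alpha-2 adrenergic receptor Adra2b fell, to 22.0 ± 11.5 CPM in F4/80-high, against 71.7 ± 5.27 CPM in non-cystic regions (log2 -1.79 ± 0.32, adjusted p = 0.00303). Adra2b, Pth1r and Gcgr thus moved with the proximal tubule markers. P2ry12 and P2ry14 moved with the macrophage markers, and equally with the fibroblast and injured tubule markers given above. The part of any of these markers in these results was not tested.

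Among 11 PKA inhibitors and further anchoring proteins 3 rose and none fell, against 19.7% and 19.5% of all tested genes. Pkia, a peptide inhibitor of the free catalytic subunit, averaged 23.2 ± 2.57 CPM in F4/80-high, 17.1 ± 3.27 CPM in F4/80-low regions and 11.8 ± 3.04 CPM in the non-cystic ones, and rose by 1.00 ± 0.18 on the log2 scale (adjusted p = 0.00224), kept under all 31 alternatives. A second inhibitor, Pkib, rose by 1.75 ± 0.48 (adjusted p = 0.018) and the anchoring protein Akap13 by 0.73 ± 0.19 (adjusted p = 0.0135). The call of Pkib was lost without kidney 1 (1.55, adjusted p = 0.163) and without kidney 3 (1.23, adjusted p = 0.0636), and that of Akap13 without kidney 1 (0.84, adjusted p = 0.0617) and without kidney 2 (0.80, adjusted p = 0.0593). Of 7 tested genes for other cAMP enzymes, effectors and transport, 4 rose and 1 fell. Prkx, a kinase related to the PKA catalytic subunits, averaged 19.2 ± 1.86 CPM in F4/80-high, against 9.71 ± 0.95 CPM in non-cystic regions, and rose by 0.98 ± 0.20 on the log2 scale (adjusted p = 0.00413), which no alternative lost. Cftr, the PKA-gated chloride channel of cyst fluid secretion, averaged 16.6 ± 11.8 CPM in F4/80-high, 7.92 ± 3.23 CPM in F4/80-low regions and 5.41 ± 0.83 CPM in the non-cystic ones (log2 1.40 ± 0.31, adjusted p = 0.00626; 1.37 and adjusted p = 0.0687 without kidney 1). Pde11a, a phosphodiesterase of cAMP and cyclic GMP, rose by 2.34 ± 0.83 (adjusted p = 0.0453), a call lost in 12 of 30 alternatives. Abcc4, which exports cAMP, fell by 0.68 on the log2 scale (adjusted p = 0.0194), a call lost without kidney 1 (-0.76, adjusted p = 0.0778), without kidney 3 (-0.42, adjusted p = 0.1) and with total counts (-0.08, adjusted p = 0.771). Rap1b, a small GTPase that Epac activates, was also named after its values were seen. It stood at 0.41 on the log2 scale (adjusted p = 0.047), a call lost in 19 of 31 alternatives, among them the omission of each kidney and of 11 single libraries, DESeq2 size factors, the DESeq2 test and no filter.

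**Figure D5:**
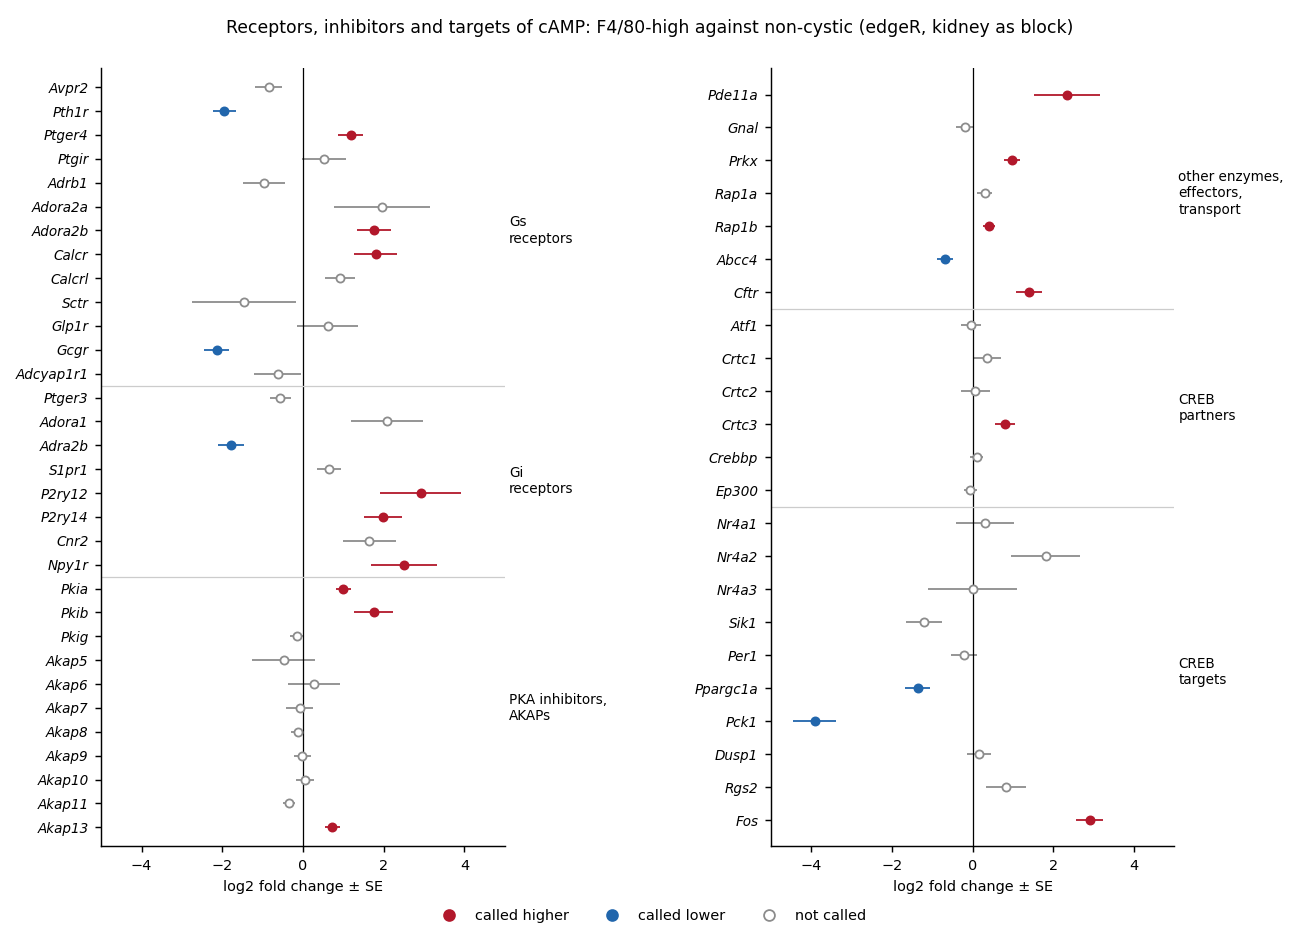
Log2 fold change ± SE in F4/80-high against non-cystic regions of tested genes of 6 lists around the cAMP genes: Gs- and Gi-coupled receptors and PKA inhibitors (left), other effectors, CREB partners and CREB targets (right); filled points passed an adjusted p of 0.05. Filled points lie on both sides of 0 in 4 of the 6 lists, with Pck1 the lowest at -3.92.

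Of 6 CREB partners Crtc3, a coactivator that cAMP signalling sends to the nucleus, was the one called, by 0.80 ± 0.24 (adjusted p = 0.0233), a call lost without any 1 kidney. Of 10 genes known as CREB targets 1 rose and 2 fell in F4/80-high against non-cystic regions, and their median log2 fold change was 0.08. Fos, an immediate early gene, averaged 10.2 ± 5.99 CPM in F4/80-high, 5.02 ± 2.23 CPM in F4/80-low regions and 1.41 ± 0.99 CPM in the non-cystic ones. Against non-cystic regions Fos was 2.90 ± 0.34 higher on the log2 scale in F4/80-high (adjusted p = 0.000281) and 1.95 ± 0.34 in F4/80-low regions (adjusted p = 0.0243). The call in F4/80-low regions was lost with no kidney block (1.81, adjusted p = 0.276), without kidney 1, without kidney 2 and without 5 single libraries. They were replicate 1 of the non-cystic region of kidney 2 (1.68, adjusted p = 0.08), replicate 1 of the F4/80-low region of kidney 1 (1.68, adjusted p = 0.063) or 3 (1.86, adjusted p = 0.0845), replicate 2 of the F4/80-low region of kidney 2 (1.45, adjusted p = 0.214) and replicate 2 of the F4/80-high region of kidney 3 (1.90, adjusted p = 0.0591). Pck1, the gluconeogenic enzyme of the proximal tubule and liver, averaged 42.9 ± 36.0, 418.6 ± 95.7 and 538.3 ± 51.7 CPM in F4/80-high, F4/80-low and non-cystic regions (log2 -3.92 ± 0.52, adjusted p = 0.000781). Ppargc1a, a coactivator of mitochondrial genes, averaged 44.6 ± 21.1, 72.6 ± 4.72 and 107.7 ± 9.12 CPM in that order (log2 -1.36 ± 0.31, adjusted p = 0.00822). Fos on the one side and Pck1 and Ppargc1a on the other thus changed in opposite directions. Their calls in F4/80-high against non-cystic regions held under the 31 alternatives. In F4/80-high against F4/80-low regions the edgeR call of Fos (log2 0.95, adjusted p = 0.044) was lost in 18 of 31 alternatives. That of Pck1 (-3.53, adjusted p = 0.00289) was lost in 1. The proximal tubule markers moved with Pck1 and Ppargc1a, and their part was not tested.

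The promoters of the called targets all hold the core motif TGACG on either strand, which is why they are shown, with the motif in capitals (TGACG, or CGTCA where it lies on the other strand). They are from RefSeq on GRCm38.p6: Fos at chr12:85473640-85473939 on the plus strand, Pck1 at chr2:173152823-173153122 on the plus strand and Ppargc1a at chr5:51567676-51567975 on the minus strand.
Fos: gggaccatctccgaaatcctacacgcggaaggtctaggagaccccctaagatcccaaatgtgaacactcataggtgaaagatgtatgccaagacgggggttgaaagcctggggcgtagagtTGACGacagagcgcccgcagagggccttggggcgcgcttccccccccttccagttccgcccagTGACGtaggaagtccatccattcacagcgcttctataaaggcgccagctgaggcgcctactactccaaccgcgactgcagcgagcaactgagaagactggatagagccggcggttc
Pck1: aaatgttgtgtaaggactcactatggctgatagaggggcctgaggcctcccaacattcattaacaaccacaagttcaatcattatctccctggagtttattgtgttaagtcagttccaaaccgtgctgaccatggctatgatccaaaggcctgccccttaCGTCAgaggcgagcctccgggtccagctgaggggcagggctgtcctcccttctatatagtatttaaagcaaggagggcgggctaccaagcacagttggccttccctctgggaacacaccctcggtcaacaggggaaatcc
Ppargc1a: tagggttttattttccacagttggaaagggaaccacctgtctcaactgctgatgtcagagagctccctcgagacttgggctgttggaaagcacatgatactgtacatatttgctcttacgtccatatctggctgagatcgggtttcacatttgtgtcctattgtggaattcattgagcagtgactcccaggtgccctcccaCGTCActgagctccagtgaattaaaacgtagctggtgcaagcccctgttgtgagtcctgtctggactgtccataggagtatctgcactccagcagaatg
None of the 3 windows holds the full element. All 9 targets found in the table carry the core in at least 1 promoter, against 23.0% of all genes of the table, and the targets were listed because CREB is known to regulate them. The window of Fos, which rose, and those of Pck1 and Ppargc1a, which fell, all hold the motif.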

How the data were processed

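Total RNA of microdissected Pkd1 KO kidney regions was sequenced in 18 libraries made with a low-input kit, per the labels' protocols. The table deposited by the authors holds raw counts of each Ensembl gene, which were not normalized. HTSeq 0.11.0, fastp 0.20.1, FastQC 0.11.9 and the assembly mm10 (GRCm38) are named in the submitters' processing notes; which aligner, gene models and strand option were used is not given in the sources used here. Strand is not marked by the kit. Library totals ran from 5366651 to 9188813 counts, and without molecular identifiers the floors given cover counting error only.

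Both libraries of each region in a kidney were added up, giving 9 sums. The edgeR 4.0.16 model (R 4.3.3) covered the 3 region types together with a kidney block, scaled by the trimmed mean of M values, with a robust quasi-likelihood test on 4 residual degrees of freedom. The filterByExpr function, run by region type, kept 16034 of 32285 genes and 99.8% of counts. Benjamini-Hochberg adjustment ran over all tested genes, and an adjusted p below 0.05 was called. SE is the unshrunken coefficient divided by the root of F. The kidney pairs the regions because they come from the same organ; correlations of deviations within a kidney ran from -0.20 to 0.37, so the block rests on the labels. The 2 libraries of a pair differed beyond counting noise and none was a duplicate. The fit was tested on simulated counts.

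Members and lists were chosen with earlier results of these data known. Members called in at least 1 comparison with a mean of 5 CPM or more in a region type are given per kidney; of each further list up to 4 called genes with the smallest p are named; Avpr2, Calcr and Rap1b were named beyond this rule after their values were seen, and 1 called receptor is not reported here. Symbols, positions and exon lengths (all annotated exons of a gene merged) are from GENCODE on GRCm38, promoters from RefSeq (33 of 42 members matched). Alternatives were DESeq2 1.42.0 size factors and Wald test, upper quartile and total-count scaling, no filter and a filter of 50 counts in 3 sums, the 18 libraries fitted separately, no kidney block, the 2 compared region types alone, and each kidney and library left out.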

Additional observations from a re-analysis of the deposited data

Results flagged for a closer look

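In 126 sets of 6 libraries (42 genes in 3 region types), the library farthest from the others was compared with Dixon's critical value of 0.625. Chance exceeds it in about 1 of 20 sets of normally distributed values, which counts near 0 are not. Adcy2 in F4/80-low regions, with 1 count, had to exceed it. The sets also share the same 18 libraries, so their number does not measure an excess of outliers. The farthest library exceeded the value in 12 sets. Those libraries stood apart from the other 5 of their region type as follows, in CPM.

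Among the cyclases, Adcy7 had 5.70 in replicate 1 of the F4/80-low region of kidney 3, against 3.20 to 4.13 in the others, and 3.74 in replicate 1 of the non-cystic region of the same kidney, against 0.682 to 1.48. So did the untested cyclases: Adcy2 had 0.882 in replicate 2 of the F4/80-high region of kidney 3 (0 to 0.227 in the others) and 0.133 in replicate 1 of the F4/80-low region of kidney 1 (0 in the others), and Adcy8 had 0.818 in replicate 1 of the non-cystic region of kidney 3 (0 to 0.178).

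Among the phosphodiesterases, replicate 1 of the F4/80-high region of kidney 1 had 7.65 for Pde2a (14.9 to 18.6 in the others) and 14.0 for Pde8b (7.05 to 8.46). Pde4c had 8.73 in replicate 2 of the F4/80-low region of kidney 2 (11.0 to 12.0), and Pde5a had 7.26 in replicate 2 of the F4/80-low region of kidney 1 (2.71 to 4.19).

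Among the effectors, Prkar2b had 4.96 in replicate 1 of the F4/80-low region of kidney 2 (0 to 1.64 in the others). Replicate 2 of the non-cystic region of kidney 2 had 40.5 for Akap12 (4.09 to 14.2) and 38.8 for Rapgef3 (26.3 to 31.0). Without that library Rapgef3 and Adcy7 kept their calls in F4/80-high against non-cystic regions, as they did without each other library.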

How the results depend on the processing

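Against the main counts of members (F4/80-high against non-cystic 10 higher and 7 lower, F4/80-high against F4/80-low 4 and 6, F4/80-low against non-cystic 0 and 0), total-count scaling gave 20 and 1, 11 and 0, and 0 and 0. Upper quartile factors gave 7 and 3 in F4/80-high against F4/80-low. Over all genes that comparison had 1649 higher and 2246 lower in the main fit, 4211 and 1120 with total counts, and 2101 and 1855 with upper quartile factors. With no filter 1 member was higher in F4/80-low against non-cystic regions, as with the DESeq2 Wald test. All genes gave 500 and 23 there with no filter and 572 and 109 with DESeq2, against 242 and 4 in the main fit. The 18 libraries fitted with the kidney as replicate block gave 2 there and 7 higher against F4/80-low, with kidney and number as block 2 and 8, and the 2 compared regions alone gave 1 and 1 against F4/80-low. Over all genes the kidney block gave 570 higher there and 2687 higher against F4/80-low, and kidney and number as block 501 and 2558. The 2 compared regions alone gave 1120 higher and 1293 lower against F4/80-low over all genes. Leaving out kidneys or libraries gave 0 to 3 higher and 0 lower in F4/80-low against non-cystic, 4 to 14 higher and 4 to 8 lower in F4/80-high against non-cystic, and 1 to 6 higher and 0 to 9 lower in F4/80-high against F4/80-low. Kidney omissions leave 2 kidneys. In F4/80-high against non-cystic regions they gave 1737 to 2976 higher and 1622 to 2881 lower over all genes, against 3156 and 3133 in the main fit. They gave 22 to 549 and 1 to 29 in F4/80-low against non-cystic regions, and 467 to 1168 and 521 to 1756 in F4/80-high against F4/80-low. Library omissions gave 31 to 381 and 0 to 12 in F4/80-low against non-cystic regions over all genes. In F4/80-high they gave 2720 to 3327 and 2616 to 3275 against non-cystic, and 1096 to 1830 and 1661 to 2441 against F4/80-low regions. With no kidney block the member counts were 11 and 6, 4 and 4, and 0 and 0, beside 3216 and 3139, 1760 and 2274, and 258 and 4 over all genes. Under that setting Pde4d lost its call against non-cystic regions, and Pde7b, Pde9a and Akap1 theirs against F4/80-low. Total-count scaling reversed Gnas (0.60), Prkar1a (0.53) and Prkar2a (0.064) in F4/80-high against non-cystic regions, where it moved the median of all genes to 0.65. The causes of the other changes were not tested. Over 31 alternatives no other call of a member changed direction. Replicate numbers within a kidney correlated between -0.114 and 0.146 and were not used as pairs. Adcy2 and Adcy8 had too few counts at this depth to be tested.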
